A study of Mus musculus with 14 samples.

Results

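The genes described here encode cytokine receptor chains in mouse bone marrow monocytes cultured with or without IL-4. They are the chains through which cells bind interferons, IL-10 and IL-22, IL-6, IL-7 and IL-17: Ifnlr1, Ifnar1, Ifnar2, Ifngr1, Ifngr2, Il10ra, Il10rb, Il6ra, Il7r and Il17ra. They were chosen by symbol, through the gene identifiers of a table of raw read counts, and make up 10 of its 55487 genes. All 10 were among the 14754 genes with enough counts to be tested. Monocytes were isolated from the marrow of the legs with a kit (purity of 90 to 95%, per the labels) then kept in culture for 3 h, either without a cytokine (medium) or with mouse IL-4 at 20 ng/mL. Wild-type cells (numbers 1, 2, 3 and 7, so n = 4 in each condition) and AhR-deficient cells (numbers 4, 5 and 6, n = 3 in each) made up 4 groups of libraries. AhR, the aryl hydrocarbon receptor, is a ligand-activated transcription factor. For the sources used here, neither allele, strain and age nor the number of mice behind a library is stated, so p-values measure the spread between these libraries.

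Interferon receptors are pairs of chains that each bring a Janus kinase (JAK) to the bound ligand, after which STAT transcription factors are phosphorylated and enter the nucleus. Type I interferons bind IFNAR1 with IFNAR2, interferon gamma binds IFNGR1 with IFNGR2, and the type III interferons (lambda) bind IFNLR1 with IL10RB, a chain that the IL-10 and IL-22 receptors also use. The IL-6 and IL-7 receptor chains need gp130 and the common gamma chain as partners, and IL-17 receptor A signals through the adaptor ACT1 in place of JAKs. IL-4 itself signals in myeloid cells through a JAK receptor and STAT6.

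The libraries held 33432502 to 42885079 counts each, and values are given as CPM, counts scaled to the size of the library, with trimmed-mean (TMM) scaling. All 10 monocyte markers examined, among them Csf1r, Ly6c2 and Lyz2, had enough counts to be tested. With IL-4, 6 of these 10 were called lower and 0 higher in each genotype. Of all tested genes, 16.5% were called lower in wild type and 14.2% in AhR-deficient cells. Ahr transcript in medium was at 15.7 to 26.1 CPM in AhR-deficient and 11.4 to 14.4 CPM in wild-type libraries, not lower in the former, so "AhR-deficient" is used as the label. The 6 AhR-deficient libraries had at least 987 CPM of Xist and the 8 wild-type libraries at most 2.12 CPM, so genotype and sex cannot be told apart. The wild-type medium library of number 7 stood apart, with Ccr2 at 478 CPM against 1424 to 1729 CPM in the other wild-type medium libraries. Its Ccr2 was just above that of the AhR-deficient medium libraries (302 to 471 CPM). In IL-4, Ccr2 was at 1642 to 1871 CPM in wild type and 477 to 564 CPM in AhR-deficient cells, and it was called lower between genotypes in both conditions (log2 -1.75 ± 0.31 in medium, adjusted p = 0.00985, and -1.75 ± 0.31 in IL-4, adjusted p = 0.0204). Results that change without number 7 are given with and without it. In a bulk sample, fewer cells that express a gene and less RNA per cell cannot be told apart.

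With IL-4, the interferon receptor genes moved in different directions. Ifnlr1, the type III chain, and both type I chains fell, and Ifngr1, the ligand-binding chain for interferon gamma, rose in both genotypes. Il17ra and Il10ra fell in both genotypes as well. In wild type 7 of the 10 genes were called at an adjusted p under 0.05 (edgeR quasi-likelihood test, Benjamini-Hochberg adjustment over all tested genes), 5 lower and 2 higher. Of all tested genes, 35.9% were called in that comparison, 16.5% lower and 19.4% higher. In AhR-deficient cells 9 of 10 were called, 5 lower and 4 higher, against 29.5% of all tested genes (14.2% lower and 15.4% higher). The median log2 change of the 10 genes was -0.16 in wild type and -0.04 in AhR-deficient cells, beside 0.01 and -0.01 over all tested genes. Libraries in medium and in IL-4 did not overlap for 5 of the 10 in wild type, against 33.2% of all tested genes, and for 10 of 10 in AhR-deficient cells, against 43.7%.

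**Figure D1:**
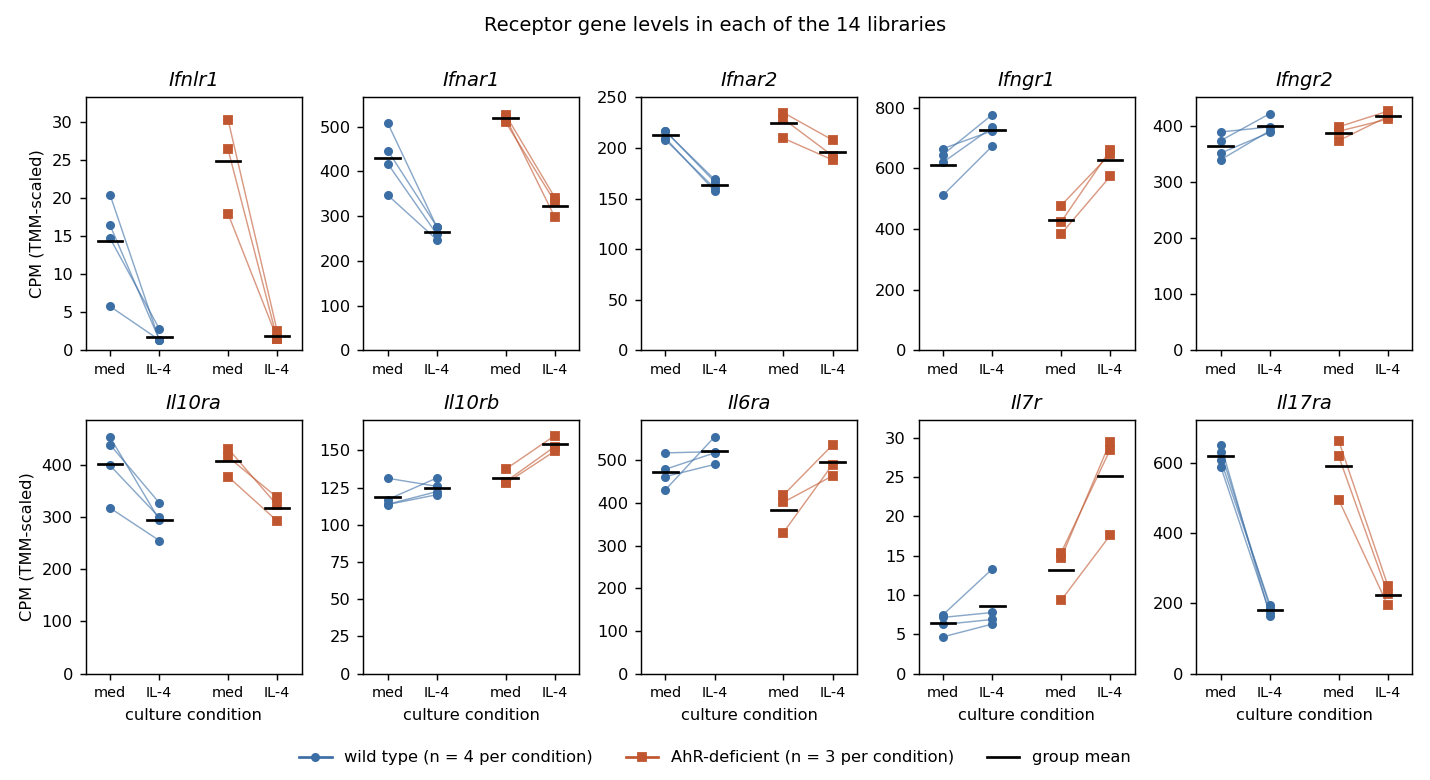
Level of each receptor gene in CPM (vertical axes, each starting at 0) in medium (med) and IL-4 for wild type (circles) and AhR-deficient (squares). Lines join libraries of the same number and black bars are group means. Ifnlr1 and Il17ra are lower in IL-4 in all 7 pairs, and Il7r is higher in IL-4 in all 7.

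Ifnlr1, the chain that binds type III interferons and is known mainly from epithelial cells and some myeloid cells, had the largest change of the 10. The gene lies at chr4:135686287-135708181 on the plus strand (GENCODE M21, GRCm38). Promoter windows here run from 250 bases before the RefSeq start (GRCm38.p6) to 50 after it. For Ifnlr1 the RefSeq start lies inside the GENCODE span, and so does part of the window before that start. The Ifnlr1 window is shown because this gene changed most:
Ifnlr1, chr4:135686207-135686506, plus strand: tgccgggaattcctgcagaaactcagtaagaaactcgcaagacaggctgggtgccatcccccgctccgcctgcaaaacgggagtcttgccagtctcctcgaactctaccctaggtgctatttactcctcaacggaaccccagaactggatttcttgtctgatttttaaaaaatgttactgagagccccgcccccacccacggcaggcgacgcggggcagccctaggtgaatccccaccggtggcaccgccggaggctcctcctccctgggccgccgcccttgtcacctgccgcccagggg
In wild type, Ifnlr1 was at 5.77, 14.7, 16.4 and 20.4 CPM in medium and at 1.37, 2.85, 1.42 and 1.38 CPM in IL-4, in the order of numbers 1, 2, 3 and 7. Its AhR-deficient libraries were at 30.3, 17.9 and 26.4 CPM in medium and at 2.52, 1.55 and 1.47 CPM in IL-4 (numbers 4, 5 and 6). Medium and IL-4 libraries did not overlap in either genotype, and wild-type number 1 was the lowest medium library. The fall was 8.07-fold in wild type (log2 -3.01 ± 0.37 SE, adjusted p = 1.9e-05) and 13.5-fold in AhR-deficient cells (log2 -3.76 ± 0.43 SE, adjusted p = 1.4e-05). Within pairs of the same number, the change ran from -3.84 to -2.03 on the log2 scale in wild type and from -4.12 to -3.49 in AhR-deficient cells. The counts behind these values ranged from 49 to 1098 per library.

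Neutrophils and plasmacytoid dendritic cells are known to express Ifnlr1, and their markers were measured beside it. The sum of 12 neutrophil markers was 482 to 1194 CPM in wild-type medium and 545 to 1059 CPM in wild-type IL-4. In AhR-deficient cells that sum was 423 to 779 CPM in medium and 382 to 667 CPM in IL-4. Of these 12 genes, 1 was called with IL-4 in each genotype, and it was higher. Beside this count and those of dendritic cell markers below, 35.9% of all tested genes were called in wild type and 29.5% in AhR-deficient cells. The sum of 11 dendritic cell markers was 431 to 496 CPM in wild-type medium and 432 to 473 CPM in wild-type IL-4, and 482 to 561.8 and 557 to 608 CPM in AhR-deficient cells. Of its 10 tested genes, 1 was called higher with IL-4 (Flt3) and 2 lower (Irf8 and Tcf4) in wild type, and 3 were called higher (Flt3, Cd209a and Itgax) in AhR-deficient cells. Flt3 was at 28.0 to 41.5 CPM in wild-type medium and 65.7 to 87.9 CPM in wild-type IL-4. Irf8, the largest part of that sum, was at 220.3 to 281 and 178 to 203 CPM. Siglech, a marker of plasmacytoid dendritic cells, was at 2.41 to 9.72 CPM over the 14 libraries. With a granulocyte marker score as a covariate, Ifnlr1 was still called lower in both genotypes. That score differed little between medium and IL-4 in most pairs (4.97 and 5.04 in number 1, but 3.76 and 4.73 in number 7). It holds no dendritic cell marker, and the part of other cells in the fall of Ifnlr1 was not tested.

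Ifnar1 and Ifnar2 encode the chains of the type I interferon receptor and lie in a cluster on chromosome 16, where Ifnar2, Il10rb, Ifnar1 and Ifngr2 lie in that order on the plus strand within 192841 bases. The members of the cluster differed in direction with IL-4. The windows of the 3 of these genes with a promoter sequence are shown, with matches to a STAT-type motif in capitals:
Ifnar2, chr16:91372533-91372832, plus strand: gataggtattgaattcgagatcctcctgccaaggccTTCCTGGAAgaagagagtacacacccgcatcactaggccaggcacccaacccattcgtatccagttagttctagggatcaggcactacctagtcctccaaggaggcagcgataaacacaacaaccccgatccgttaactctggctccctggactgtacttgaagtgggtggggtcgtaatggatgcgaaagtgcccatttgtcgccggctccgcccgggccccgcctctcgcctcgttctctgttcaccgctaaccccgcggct
Ifnar1, chr16:91484965-91485264, plus strand: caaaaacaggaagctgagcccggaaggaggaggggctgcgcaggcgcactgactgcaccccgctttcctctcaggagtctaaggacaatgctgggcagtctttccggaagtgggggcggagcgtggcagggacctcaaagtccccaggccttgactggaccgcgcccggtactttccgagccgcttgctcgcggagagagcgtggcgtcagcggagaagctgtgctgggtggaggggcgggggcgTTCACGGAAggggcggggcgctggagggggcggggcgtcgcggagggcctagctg
Ifngr2, chr16:91546809-91547108, plus strand: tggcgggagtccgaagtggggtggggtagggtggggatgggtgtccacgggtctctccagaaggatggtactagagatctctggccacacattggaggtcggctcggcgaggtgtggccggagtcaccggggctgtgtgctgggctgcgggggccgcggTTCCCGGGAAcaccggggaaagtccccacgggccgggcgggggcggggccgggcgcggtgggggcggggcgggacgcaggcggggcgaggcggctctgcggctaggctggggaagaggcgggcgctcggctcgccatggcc
The motifs searched were TTCNNNGAA, a palindromic form bound by several STATs, the same TTC and GAA with 4 bases between them, the spacing preferred by STAT6, and GAAA repeated with 2 bases between, an interferon-response form. Both strands were read, and the first 2 forms read the same on each. Counted from the start, Ifnar2 held TTCCTGGAA from base -214, Ifnar1 held TTCACGGAA from base -5, and Ifngr2 held TTCCCGGGAA, with the wider spacing, from base -91. Of all 32851 RefSeq windows, 8.3% held TTCNNNGAA, 6.95% the wider form and 3.44% the interferon-response form. Each of these windows held 1 match, and a match describes letters, not binding.

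Windows matched 7 of the 10 genes, all but Il10ra, Il10rb and Il17ra. The TTCNNNGAA form was in 3 of the 7 (Ifnar1, Ifnar2 and Il7r), the wider form in 1 (Ifngr2), and the interferon-response form in none. Ifnlr1, Ifngr1 and Il6ra held none of the 3 forms. With the window limited to the 100 bases before the start, only the match of Ifngr2 was left, against 2.03% of all windows with that form. Among the genes with a match, 2 fell with IL-4 in both genotypes (Ifnar1 and Ifnar2), Ifngr2 rose in wild type and Il7r rose in AhR-deficient cells.

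Ifnar1 was at 347, 417, 447 and 508 CPM in wild-type medium and at 247, 259, 276 and 276 CPM in wild-type IL-4. It was at 526.4, 510 and 520 CPM in AhR-deficient medium and at 342, 332 and 298 CPM in IL-4. All IL-4 libraries were below all medium libraries of either genotype. The log2 change was -0.70 ± 0.09 (SE) in wild type and -0.68 ± 0.10 in AhR-deficient cells (adjusted p = 3.3e-05 and 0.0002). Ifnar2 was more even between libraries, at 210, 208, 217 and 216 CPM in wild-type medium and 158, 160, 167 and 169 CPM in wild-type IL-4. In AhR-deficient cells Ifnar2 was at 210, 235 and 229 CPM in medium and 188, 208 and 192 CPM in IL-4. Its libraries did not overlap between medium and IL-4 within a genotype, by the narrowest margin in AhR-deficient cells. The log2 change of Ifnar2 was -0.38 ± 0.05 in wild type and -0.19 ± 0.05 in AhR-deficient cells (adjusted p = 2.2e-05 and 0.0148). In AhR-deficient cells the call on Ifnar2 was lost without IL-4 number 4 or 6 or medium number 5 or 6 (log2 -0.18 to -0.16, adjusted p 0.0561 to 0.0691), with no filter on low counts (adjusted p = 0.0752) and with only the groups compared in the fit (adjusted p = 0.0588). It was kept with the number as a block, which compares libraries within pairs (log2 -0.19, adjusted p = 0.00329 in edgeR and 0.00415 in DESeq2). A random block in limma-voom kept it too (adjusted p = 0.00188).

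The gene between them, Il10rb, did not fall. It starts 575 bases after the end of Ifnar2, and a read-through transcript, Gm21970, shares exons with both. That transcript had 0 counts in all 14 libraries, so how reads in shared exons were assigned is uncertain for Ifnar2 and Il10rb. Il10rb encodes the chain common to the IL-10, IL-22 and type III interferon receptors. It was at 114, 114, 117 and 131 CPM in wild-type medium and 120, 122, 132 and 126 CPM in wild-type IL-4. In AhR-deficient cells it was at 129, 137 and 128 CPM in medium and at 153, 160 and 150 CPM in IL-4. The wild-type groups overlapped, with a log2 difference of 0.07 ± 0.05 that did not pass (adjusted p = 0.329). In AhR-deficient cells the groups were apart and Il10rb rose by 0.23 ± 0.06 (adjusted p = 0.0105).

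**Figure D2:**
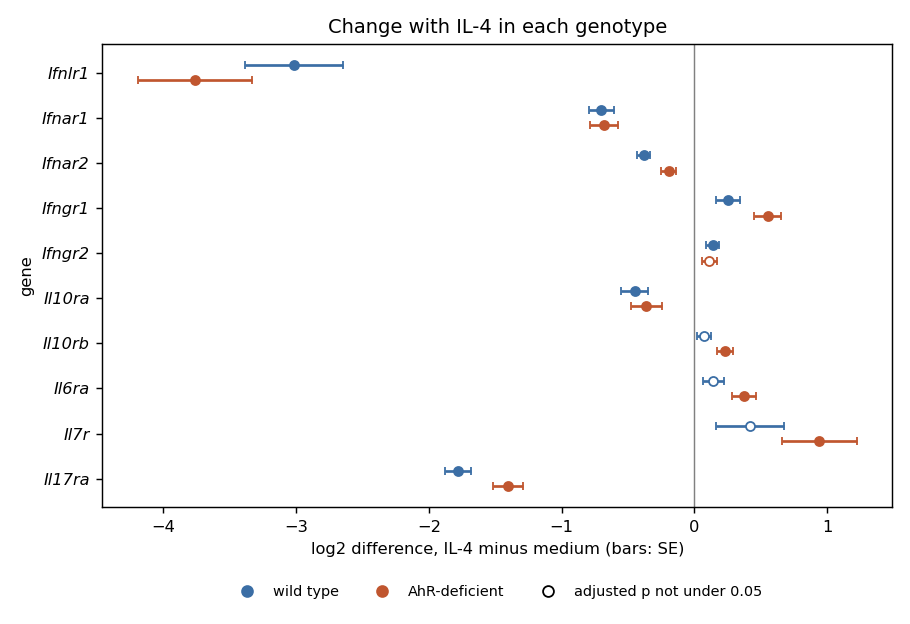
Log2 difference between IL-4 and medium (horizontal axis) for each receptor gene in wild type and AhR-deficient cells. Points are edgeR estimates, bars are standard errors, and open points did not reach an adjusted p under 0.05. Ifnlr1 and Il17ra lie below -1 in both genotypes, and the other 8 genes lie within 1 of zero.

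Ifngr1 and Ifngr2 encode the 2 chains of the interferon gamma receptor, of which IFNGR1 binds the ligand and IFNGR2 brings in JAK2. Ifngr1 was at 666, 646, 512 and 621 CPM in wild-type medium and at 724, 777, 674 and 736 CPM in wild-type IL-4. Its AhR-deficient libraries were at 384, 424 and 478 CPM in medium and at 574, 661 and 648 CPM in IL-4. The lowest IL-4 library was above the highest medium library in both genotypes. Ifngr1 rose by 0.25 ± 0.09 on the log2 scale in wild type and by 0.55 ± 0.10 in AhR-deficient cells (adjusted p = 0.036 and 0.000833). The wild-type call was lost without IL-4 number 1, 2 or 7 or medium number 3 or 7 (log2 0.17 to 0.26, adjusted p 0.0599 to 0.103), without both libraries of number 7 (log2 0.25, adjusted p = 0.113), and without wild-type numbers 1 and 2 (log2 0.31, adjusted p = 0.0897). All 4 wild-type pairs were higher in IL-4, and the number as a block kept the call (adjusted p = 0.00176 in edgeR and 0.000108 in DESeq2). So did a random block in limma-voom (adjusted p = 0.00565).

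Ifngr2 moved less than its partner. It was at 340, 352, 375 and 390 CPM in wild-type medium and 392, 389, 423 and 399 CPM in wild-type IL-4, and the groups overlapped. In AhR-deficient cells it was at 391, 375 and 399 CPM in medium and 413, 418 and 427 CPM in IL-4. Ifngr2 rose by 0.14 ± 0.05 in wild type, with an adjusted p of 0.0394, and in AhR-deficient cells its log2 difference of 0.11 ± 0.06 did not pass (adjusted p = 0.167). The wild-type call was lost in 7 of 14 fits that left out 1 library: wild-type medium number 1 or 2, wild-type IL-4 number 1, 3 or 7, AhR-deficient medium number 6 or AhR-deficient IL-4 number 5 (log2 0.10 to 0.14, adjusted p 0.0525 to 0.12). It was also lost with DESeq2 size factors (adjusted p = 0.0626), with no filter on low counts (adjusted p = 0.157), with only the groups compared (adjusted p = 0.0992) and without wild-type numbers 1 and 2 (adjusted p = 0.238). All 4 wild-type pairs were higher in IL-4, and the number as a block kept the call (adjusted p = 0.0156 in edgeR and 0.0347 in DESeq2). So did a random block in limma-voom (adjusted p = 0.00854).

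Il10ra encodes the ligand-binding chain of the IL-10 receptor, through which IL-10 restrains cytokine production by monocytes. It was at 317, 398, 438 and 452 CPM in wild-type medium and at 255, 299, 327 and 294 CPM in wild-type IL-4. In AhR-deficient cells it was at 415, 377 and 430 CPM in medium and 337, 292 and 322 CPM in IL-4. Wild-type groups overlapped through number 1, whose medium library was the lowest, and all 4 wild-type pairs were lower in IL-4. Il10ra fell in both, with log2 changes of -0.45 ± 0.10 and -0.36 ± 0.12 (adjusted p = 0.00337 and 0.0335). The AhR-deficient call was lost without IL-4 number 5 or 6 or medium number 4 or 6 (log2 -0.37 to -0.30, adjusted p 0.0706 to 0.131). It was kept with the number as a block (log2 -0.36, adjusted p = 0.000536 in edgeR and 6.2e-07 in DESeq2). A random block in limma-voom kept it too (adjusted p = 0.00472). The genes annotated within or across Il10ra were the antisense gene Gm20612 with 0 counts in every library and Mir7086 with 0 to 9 counts.

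Il17ra, the shared chain of the IL-17 family receptors, had the smallest adjusted p of the 10 in both genotypes. The gene lies at chr6:120463247-120487559 on the plus strand. It was at 651, 607, 588 and 630 CPM in wild-type medium and at 165, 197, 173 and 188 CPM in wild-type IL-4. The AhR-deficient libraries were at 494, 662 and 618 CPM in medium and at 194, 250 and 227 CPM in IL-4. No library of one condition came near the other. The log2 change was -1.78 ± 0.10 in wild type and -1.40 ± 0.11 in AhR-deficient cells (adjusted p = 5.3e-09 and 3.6e-07), and by pair it ran from -1.98 to -1.63 and from -1.45 to -1.35. Its convergent neighbour Tmem121b, which ends 1380 bases from it, fell as well (log2 -1.92 ± 0.29 and -2.09 ± 0.33, adjusted p = 0.00013 and 0.00025). Kdm5a, the nearest tested gene on the other side, fell (log2 -0.31 ± 0.06 and -0.24 ± 0.06, adjusted p = 0.000599 and 0.0125).

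Il6ra encodes the IL-6-binding chain, which signals with gp130 and can be shed from the cell surface by the protease ADAM17. It was at 517, 479, 431 and 462 CPM in wild-type medium and 520, 517, 555 and 490 CPM in wild-type IL-4. Its AhR-deficient libraries were at 331, 402 and 418 CPM in medium and 490, 463 and 536 CPM in IL-4. The wild-type groups overlapped and the difference did not pass (log2 0.14 ± 0.08, adjusted p = 0.185). In AhR-deficient cells the groups were apart and Il6ra rose by 0.37 ± 0.09 (adjusted p = 0.00606). The antisense gene Gm42809, which overlaps an exon of Il6ra, had 2 to 13 counts per library.

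Il7r encodes the IL-7 receptor alpha chain, used with the common gamma chain for IL-7 and with CRLF2 for TSLP, and is best known from lymphocytes. Its promoter window is shown because it differed from the others in composition, with 45.7% G or C and 1 CpG:
Il7r, chr15:9529827-9530126, minus strand: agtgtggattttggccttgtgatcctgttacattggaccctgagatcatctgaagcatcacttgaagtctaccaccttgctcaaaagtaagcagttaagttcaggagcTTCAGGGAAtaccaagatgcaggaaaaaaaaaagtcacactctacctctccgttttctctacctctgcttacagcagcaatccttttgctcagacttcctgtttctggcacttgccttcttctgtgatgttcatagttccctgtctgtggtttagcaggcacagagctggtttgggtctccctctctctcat
The capitals mark TTCAGGGAA, which begins at base -142, counted from the RefSeq start. GENCODE M21 places Il7r at chr15:9505788-9530176, with an earlier start, so the whole window lies inside the gene by that annotation. The other 6 windows had 57.0 to 74.3% G or C and 14 to 31 CpG, beside a median of 52.7% and 7 CpG over all windows. Il7r was at 4.69, 6.26, 7.51 and 7.16 CPM in wild-type medium and 6.31, 6.90, 13.3 and 7.78 CPM in wild-type IL-4. In AhR-deficient cells it was at 14.7, 15.4 and 9.33 CPM in medium and 29.5, 28.5 and 17.6 CPM in IL-4. Every pair was higher in IL-4, and wild-type number 3 held the highest wild-type value.

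In AhR-deficient cells Il7r rose by 0.94 ± 0.28 with IL-4 (adjusted p = 0.0208). That call was lost without IL-4 number 4 or 5 or medium number 6 (log2 0.75 to 0.84, adjusted p 0.0746 to 0.0923). It was kept with the number as a block (log2 0.94, adjusted p = 7.3e-05 in edgeR and 3.5e-10 in DESeq2). A random block in limma-voom kept it too (log2 0.93, adjusted p = 0.00107). In wild type the log2 difference of 0.42 ± 0.26 did not pass (adjusted p = 0.236). With the number as a block, which compares libraries within pairs, it passed in edgeR (log2 0.39, adjusted p = 0.0143) and in DESeq2 (log2 0.38, adjusted p = 0.0147), and with a random block in limma-voom it did not (log2 0.37, adjusted p = 0.199). The summed level of 20 lymphoid markers was 23.1 to 27.0 CPM in wild-type medium, 15.4 to 19.3 CPM in wild-type IL-4, 20.7 to 23.7 CPM in AhR-deficient medium and 16.8 to 18.2 CPM in AhR-deficient IL-4. Of the 11 tested, 1 was called with IL-4 in each genotype, Rora, and it was lower, against 35.9% and 29.5% of all tested genes. Rora made up most of that sum, at 15.7 to 18.6, 9.51 to 11.98, 12.2 to 14.9 and 9.18 to 10.4 CPM in the same order of groups. Cd3e, a T cell marker, was at 1.82 and 1.34 CPM in the medium and IL-4 libraries of wild-type number 3 and at 0.876 CPM or less elsewhere, down to 0. The part of lymphoid cells in the level of Il7r was not tested.

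Per kilobase of exons, the levels spanned a wide range. In wild-type medium the order was Ifngr1 (215 ± 24.1 CPM per kb, SD, n = 4), Il10ra (115 ± 17.4), Ifngr2 (96.7 ± 5.90), Ifnar1 (72.4 ± 11.3), Il17ra (71.5 ± 3.14), Ifnar2 (63.9 ± 1.36), Il6ra (54.6 ± 4.17), Il10rb (31.2 ± 2.20), Ifnlr1 (3.43 ± 1.48) and Il7r (1.37 ± 0.270). The ranges of Il10ra and Ifngr2 overlapped, as did those of Ifnar1 with Il17ra, Ifnar2 and Il6ra. Those of Ifnlr1 (1.38 to 4.88 CPM per kb) and Il7r (1.01 to 1.61) overlapped as well. Ifngr1 was first in all 4 groups, and Il17ra went from the fifth place in medium to the eighth in IL-4 in both genotypes. With IL-4, Ifnlr1 dropped below Il7r to the last place. With the longest transcript in place of all exons, Ifnar1 moved from the fourth place to the third in wild-type medium, and the first and last places were the same.

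**Figure D3:**
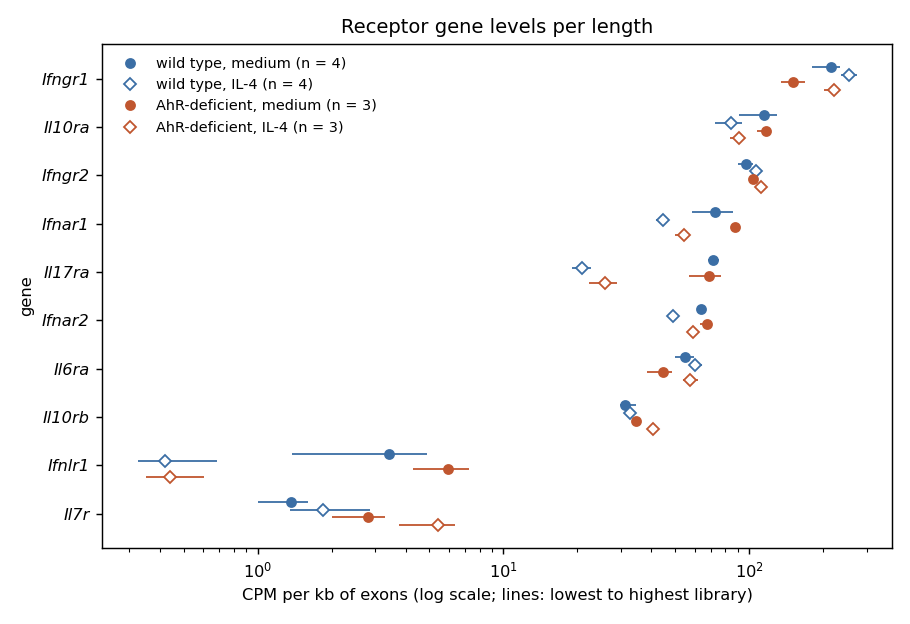
Level per kilobase of exons (horizontal axis, log scale, CPM per kb) of each receptor gene in the 4 groups. Symbols are group means and lines run from the lowest to the highest library. Ifnlr1 and Il7r hold the last places in every group.

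Chains of one receptor did not keep the same ratio in IL-4 and medium. Per length, Ifnlr1 stood at 0.108 ± 0.0425 (SD, n = 4) of its partner Il10rb in wild-type medium and at 0.0128 ± 0.00558 in wild-type IL-4. In AhR-deficient cells the same ratio was 0.174 ± 0.0491 (n = 3) in medium and 0.0109 ± 0.00357 in IL-4. The ratio of Il10ra to Il10rb was 3.67 ± 0.444 in wild-type medium and 2.55 ± 0.179 in IL-4, and 3.38 ± 0.354 and 2.25 ± 0.226 in AhR-deficient cells. Neither pair of ratios overlapped between medium and IL-4 within a genotype. The ratio of Ifnar1 to Ifnar2 was 1.13 ± 0.159 in wild-type medium and 0.908 ± 0.0208 in IL-4, with ranges that met (0.927 to 1.32 and 0.880 to 0.929), and 1.30 ± 0.0978 and 0.927 ± 0.0799 in AhR-deficient cells, with ranges that did not. The ratio of Ifngr1 to Ifngr2 was 2.23 ± 0.346 and 2.41 ± 0.221 in wild type, which overlapped, and 1.46 ± 0.146 and 1.98 ± 0.129 in AhR-deficient cells, which did not. These ratios describe transcripts and were not tested.

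The question of whether the genotypes differed in these genes was asked in medium and in IL-4 separately. In medium, 3 of the 10 genes were called, against 8.11% of all tested genes (4.16% higher and 3.95% lower), with Ifngr1 and Il6ra lower and Il7r higher in AhR-deficient cells. In IL-4, Ifnar2, Il10rb and Il7r were called higher, 3 of 10 against 1.62% of all tested genes (0.956% higher and 0.664% lower). Libraries of the genotypes did not overlap for 4 genes in medium (20.0% of all tested genes) and for 5 in IL-4 (18.2%). Every one of these calls was lost in at least 1 fit that left out a single library.

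Il7r was the only gene called in both conditions. It was 1.03 ± 0.27 higher on the log2 scale in AhR-deficient medium (adjusted p = 0.0352) and 1.56 ± 0.26 higher in IL-4 (adjusted p = 0.0169), and no AhR-deficient library overlapped a wild-type one in the same condition. The medium call was lost without wild-type number 1 or 2 or AhR-deficient number 4 or 5 in medium (log2 0.91 to 1.02, adjusted p 0.0857 to 0.154), and without both libraries of number 7 (log2 1.09, adjusted p = 0.0527). The IL-4 call was lost without wild-type number 1 or 2 or AhR-deficient number 4 or 5 in IL-4 (log2 1.43 to 1.46, adjusted p 0.0629 to 0.0849). The log2 difference itself stayed between 0.83 and 1.23 in medium and between 1.26 and 1.85 in IL-4 over all alternatives. Of the 11 lymphoid markers tested, 8 had negative differences in medium and 8 in IL-4 (medians -0.14 and -0.43), with no call in medium and 1, Cd4, lower in IL-4. The 3 with positive differences included Gata3, which was not called. Gata3 was at 0.457 to 2.35 CPM in wild-type and 1.61 to 3.26 CPM in AhR-deficient medium. In IL-4 it was at 0.701 to 1.69 and 2.23 to 3.95 CPM, without overlap.

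Ifngr1 was lower in AhR-deficient medium (log2 -0.51 ± 0.10, adjusted p = 0.0106), with AhR-deficient libraries at 384 to 478 CPM and wild-type libraries at 512 to 666 CPM. Without AhR-deficient medium number 4 the value was -0.44 (adjusted p = 0.0733). Il6ra was lower in AhR-deficient medium as well (log2 -0.30 ± 0.08, adjusted p = 0.0454), and 11 of 14 fits without 1 library lost that call (log2 -0.33 to -0.20, adjusted p 0.0511 to 0.22). It was also lost without both libraries of number 7 (log2 -0.32, adjusted p = 0.0606). The exceptions among the 14 were the fits without AhR-deficient number 6 in medium or IL-4 or wild-type medium number 3. In IL-4 neither gene passed (log2 -0.21 ± 0.09, adjusted p = 0.244 for Ifngr1, and -0.07 ± 0.08, adjusted p = 0.717 for Il6ra).

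Ifnar2 and Il10rb, adjacent genes, were called higher in AhR-deficient cells in IL-4 by 0.26 ± 0.05 and 0.30 ± 0.06 (adjusted p = 0.0276 and 0.0251). Both calls were lost without wild-type IL-4 number 1 or 2 or AhR-deficient IL-4 number 4 or 5 (adjusted p 0.0738 to 0.13). In medium their differences were 0.08 ± 0.05 and 0.14 ± 0.06 and did not pass (adjusted p = 0.367 and 0.122). Ifnar1 was 0.27 ± 0.10 and 0.29 ± 0.10 higher in AhR-deficient medium and IL-4, which did not pass (adjusted p = 0.0949 and 0.134), though its libraries did not overlap in either condition. Without wild-type medium number 7, Ifnar1 and Il10rb were called in medium (log2 0.36 and 0.19, adjusted p = 0.0237 and 0.0331). Without wild-type medium number 1, Ifnar1 was called in IL-4 (log2 0.29, adjusted p = 0.0388).

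The other 4 genes passed in neither condition by edgeR. Ifnlr1 differed by 0.79 ± 0.34 in medium, where its libraries overlapped (adjusted p = 0.149), and by 0.05 ± 0.44 in IL-4 (adjusted p = 0.969). Ifngr2 differed by 0.09 ± 0.05 and 0.06 ± 0.05 (adjusted p = 0.284 and 0.548), and Il10ra by 0.02 ± 0.11 and 0.11 ± 0.11 (adjusted p = 0.930 and 0.643). The differences of Il17ra were -0.07 ± 0.10 in medium and 0.31 ± 0.10 in IL-4 (adjusted p = 0.729 and 0.129), and DESeq2 called the latter (log2 0.32, adjusted p = 0.0439).

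Granulocyte marker levels lay beside these differences. All 10 eosinophil and basophil markers had negative log2 differences in medium, and 10 of 12 neutrophil markers did, though none was called. The mean log2 CPM of both lists was 3.76 to 4.97 in wild-type medium, 3.81 to 5.04 in wild-type IL-4, and 3.07 to 4.17 in AhR-deficient medium and 3.07 to 4.16 in AhR-deficient IL-4. With that score as a covariate, the calls on Il6ra and Il7r in medium (log2 -0.33 and 0.996, adjusted p = 0.0683 and 0.0779) and all 3 calls in IL-4 were lost, while Ifngr1 in medium was called. The differences in IL-4 were then 0.24 for Ifnar2, 0.27 for Il10rb and 1.501 for Il7r (adjusted p = 0.131, 0.125 and 0.0721), beside 0.26, 0.30 and 1.56 without the score.

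**Figure D4:**
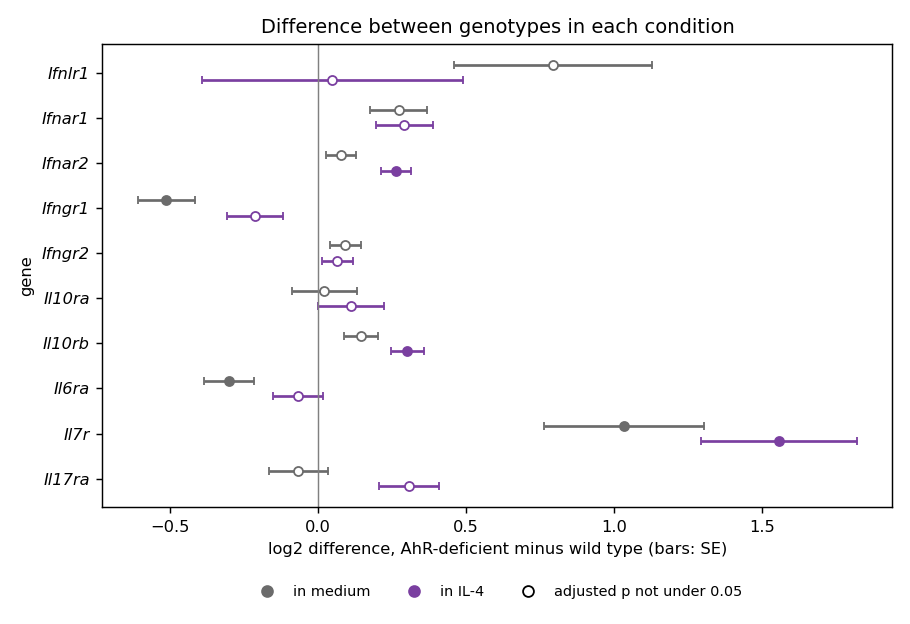
Log2 difference between AhR-deficient and wild type (horizontal axis) for each receptor gene in medium and in IL-4. Points are edgeR estimates with standard errors, and open points did not reach an adjusted p under 0.05. Il7r has filled points in both conditions, and Ifngr1 and Il6ra lie below zero.

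Whether IL-4 acted differently in the genotypes was tested as an interaction. No receptor gene passed by edgeR (adjusted p = 0.9999 for each), where 0% of all tested genes were called. At an unadjusted p under 0.05 there were 3 of the 10: Ifnar2 (0.19 ± 0.07), Ifngr1 (0.30 ± 0.13) and Il17ra (0.37 ± 0.14), given as the AhR-deficient minus the wild-type log2 change, beside 558 of all 14754 tested genes (3.78%). DESeq2 and limma-voom called none of the 10 either. With the number as a block in edgeR, 6 of the 10 and 8.49% of all tested genes were under that unadjusted p, and none was called. In that fit the interaction of Il17ra was 0.38 ± 0.08 (adjusted p = 0.234), and the block in DESeq2, an added alternative, gave 0.40 ± 0.09 and called it (adjusted p = 0.00495).

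Genes whose levels followed the strongest responders were found by Pearson correlation of log2 CPM over the 14 libraries, which share the same medium and IL-4 contrast. For Ifnlr1 these were Slc25a37 (r = 0.987), which encodes the mitochondrial iron importer mitoferrin-1, Apbb1ip (0.987), which encodes an integrin-activating adaptor, and Agpat4 (0.986), an acyltransferase gene of phospholipid synthesis. Their log2 changes in wild type were -2.20 ± 0.19, -0.44 ± 0.06 and -1.91 ± 0.14. For Il17ra these were Myo1f (r = 0.994), an unconventional myosin gene of leukocytes, Btla (0.992), an inhibitory receptor gene, and Fnbp1 (0.991), a membrane-curvature protein gene. In wild type they changed by -0.76 ± 0.05, -1.34 ± 0.05 and -0.96 ± 0.07. All 6 fell in AhR-deficient cells too.

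Genes for partner chains of these receptors and for related receptors were listed together, and some changed with IL-4. Of 11 listed genes 8 were tested, and 3 rose and 2 fell in wild type while 3 rose and 3 fell in AhR-deficient cells. Of all tested genes, 35.9% were called in wild type and 29.5% in AhR-deficient cells. The wild-type rises were Il6st, Il20rb and Il22ra2, of which only Il6st encodes a partner of a chain described here. Il6st, which encodes gp130, rose by 0.81 ± 0.08 and 0.83 ± 0.09 (adjusted p = 1.4e-06 and 6.3e-06), from 306 to 535 and from 390 to 692 CPM on average. Il2rg, which encodes the common gamma chain, fell (log2 -0.83 ± 0.17 and -0.96 ± 0.20, adjusted p = 0.00193 and 0.00222). Il17rc, the partner of IL-17 receptor A for IL-17A, fell (log2 -1.83 ± 0.26 and -1.34 ± 0.29, adjusted p = 6.5e-05 and 0.00315). Il20rb, a chain of the IL-20 family receptors, rose by 1.92 ± 0.20 and 1.68 ± 0.23 from a mean of 1.31 and 1.33 CPM.

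Ligand transcripts were scarce. Of 14 listed ligands 6 had 0 counts in all libraries (Ifna2, Ifna4, Ifnl2, Ifnl3, Il22 and Il25), which at 3 counts allows a level of up to 0.0700 to 0.0897 CPM per library, counting error only. Only Il10, Il6 and Tslp had enough counts to be tested. Il10 fell from a mean of 0.340 to 0.0801 CPM in wild type and from 0.977 to 0.284 CPM in AhR-deficient cells (log2 -2.02 ± 0.58 and -1.78 ± 0.53, adjusted p = 0.0135 and 0.0201). In wild type its groups overlapped, at 0.0857 to 0.524 CPM in medium and 0.0253 to 0.136 CPM in IL-4, near the 3-count level. Il6, at means of 1.81 to 2.96 CPM, and Tslp did not pass.

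Of 12 genes, made up of kinases, STATs and Irf9, 3 rose and 2 fell in wild type and 2 rose and 2 fell in AhR-deficient cells. Beside these counts and those of the regulators below, 35.9% of all tested genes were called in wild type and 29.5% in AhR-deficient cells. Stat5a rose by 0.89 ± 0.07 and 0.999 ± 0.08 (adjusted p = 3.3e-07 and 6.3e-07), and Jak2 by 1.14 ± 0.12 and 0.95 ± 0.14 (adjusted p = 6.3e-06 and 0.00018). Stat4 fell (log2 -0.89 ± 0.18 and -0.76 ± 0.21, adjusted p = 0.00166 and 0.0121), and Stat3 fell in wild type (log2 -0.42 ± 0.09, adjusted p = 0.00312). Among 15 regulators of these pathways, 8 rose and 2 fell in wild type and 7 rose and 3 fell in AhR-deficient cells. Usp18, which encodes a protein that binds IFNAR2 and restrains type I interferon signalling, rose by 2.46 ± 0.28 and 1.79 ± 0.31 (adjusted p = 1e-05 and 0.000492). Adam17, the sheddase of the IL-6 receptor, fell (log2 -0.96 ± 0.11 and -0.97 ± 0.13, adjusted p = 9.5e-06 and 4.4e-05). Socs1 and Cish, feedback inhibitors of JAK signalling, rose from 0.678 to 130 CPM and from 3.77 to 272 CPM on average in wild type.

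Interferon target genes were measured as well, and which signal moved them was not tested. Of 27, 3 rose and 5 fell in wild type and 1 rose and 4 fell in AhR-deficient cells. Of all tested genes, 35.9% and 29.5% were called. The medians were -0.17 and -0.14, beside 0.01 and -0.01 over all tested genes. Cxcl10, a chemokine gene induced by interferons, fell (log2 -3.57 ± 0.54 and -3.49 ± 0.57, adjusted p = 0.000123 and 0.000315). Irf7, which encodes a transcription factor of the type I interferon response, rose by 1.81 ± 0.29 and 1.30 ± 0.32 (adjusted p = 0.000202 and 0.00725). Ciita and Irf1 rose in wild type (1.12 ± 0.29 and 0.59 ± 0.17, adjusted p = 0.00698 and 0.0142). Between genotypes, 26 of 27 had positive differences in medium and 26 of 27 in IL-4 (medians 0.77 and 0.71, beside 0.01 and -0.01). Of these, 4 and 3 were called higher in AhR-deficient cells, against 4.16% and 0.956% of all tested genes. The AhR-deficient libraries were not alike: in medium 24 of the 27 were above every wild-type library in number 4 and 24 in number 6, against 5 in number 5, and in IL-4 the counts were 24, 24 and 7. Such counts were not made over all tested genes, so they compare the AhR-deficient libraries with each other only.

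Of 11 targets of IL-10 and IL-6 through STAT3, 2 rose and 3 fell in wild type and 1 rose and 2 fell in AhR-deficient cells. The shares called over all tested genes were 35.9% and 29.5%. Nfil3, a transcription factor gene, rose by 1.65 ± 0.07 and 1.71 ± 0.08 (adjusted p = 2.6e-10 and 1.3e-09). Tnfrsf1b, which encodes the TNF receptor 2, fell (log2 -0.70 ± 0.12 and -0.62 ± 0.14, adjusted p = 0.000342 and 0.00318), as did Junb (log2 -0.54 ± 0.15 and -0.76 ± 0.17, adjusted p = 0.0102 and 0.00375). Etv3 rose in wild type (1.02 ± 0.25, adjusted p = 0.00534). Between genotypes, all 11 had positive differences in medium and in IL-4 (medians 0.47 and 0.55, beside 0.01 and -0.01 over all tested genes). Of these, 1 was called higher in AhR-deficient medium and 0 in IL-4, against 4.16% and 0.956% of all tested genes.

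**Figure D5:**
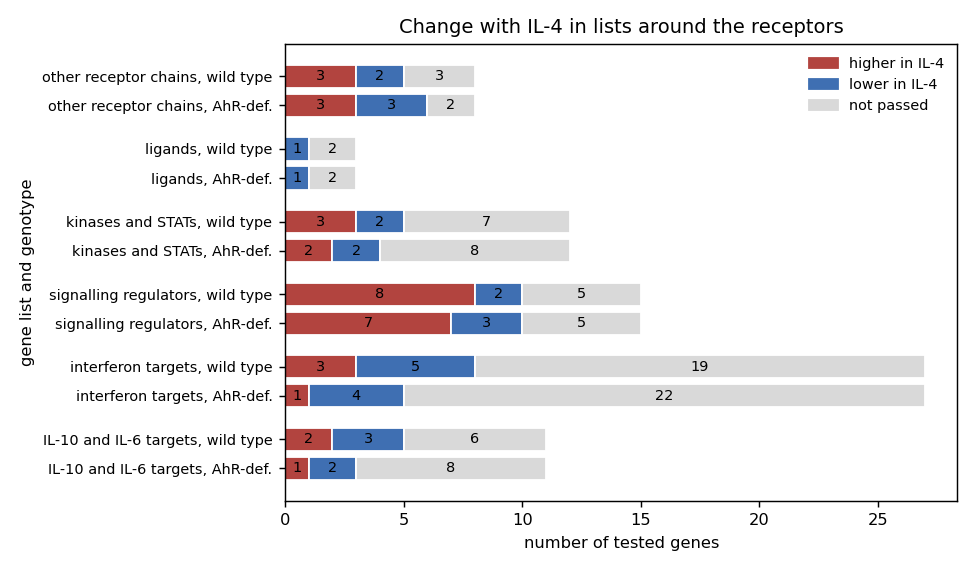
Number of tested genes (horizontal axis) that were higher, lower or not passed with IL-4 in 6 lists of genes around the receptors, for wild type and AhR-deficient cells. The regulator list has the most rises (8 and 7 of 15), and most interferon targets did not pass (19 and 22 of 27).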

How the data were processed

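Messenger RNA was sequenced from 14 libraries (stranded mRNA kit, 500 ng of RNA, paired 100-nt reads, per the labels' protocols). The authors deposited raw counts per gene. The tools FastQC and STAR and the mm10 build are named without roles, per the submitters' processing notes. Which program counted reads, on which annotation and strand, is not given in the sources used here. Of 55487 identifiers, 55394 matched GENCODE M21 (GRCm38) without their version and gave symbols and positions, and promoter windows came from RefSeq tables of GRCm38.p6.

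The analysis ran in edgeR 4.0.16 under R 4.3.3: filterByExpr on the 4 groups (14754 genes), TMM scaling, and a quasi-likelihood F-test with 1 mean per group over 14 libraries (10 residual degrees of freedom). Benjamini-Hochberg adjustment covered all 14754 genes, and a call needed an adjusted p under 0.05. The 5 comparisons were the IL-4 response in each genotype, the genotype difference in each condition and the interaction. The steps were tested on simulated counts. CPM are TMM-scaled, and the 3-count floor covers counting error only.

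Groups came from the titles, whose numbers paired the libraries: with group means removed, libraries of the same number correlated at r of 0.170 to 0.706 over 10575 genes, and 7 of 7 numbers matched themselves best. Since each number belongs to 1 genotype, a fixed block serves the IL-4 responses and the interaction only. Alternatives used DESeq2 1.42.0, limma 3.58.1 (voom, random block), other scalings and filters (1 CPM in 3 libraries, or none), fewer groups, a granulocyte score as covariate, and libraries left out. Leaving out number 7 and a fixed block in DESeq2 were chosen after seeing the data.

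The genes and lists were chosen with earlier results of these data known. All 10 receptor genes were named in each comparison, and of each other list up to 4 tested genes with the smallest adjusted p over the IL-4 responses. For receptor genes called with a log2 change of at least 1 in size, the 3 genes of highest correlation were named, and neighbours were the nearest tested protein-coding genes. Of the marker lists, Cd3e, Cd4, Gata3, Rora, Siglech, Ccr2 and the dendritic cell markers named, and of the neighbours those of Il17ra, were picked for naming after their values were seen.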

Additional observations from a re-analysis of the deposited data

Results flagged for a closer look

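Of 20 groups of 4 libraries (the 10 receptor genes in the wild-type groups), 1 held a library far from the others. Ifnlr1 in wild-type IL-4 was at 2.85 CPM in number 2, above 1.37, 1.42 and 1.38 CPM in numbers 1, 3 and 7. Chance flags about 1 in 20 such groups. The library was still below every wild-type medium library.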

How the results depend on the processing

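The falls of Ifnlr1, Ifnar1, Il17ra and, in wild type, Ifnar2 and Il10ra were called under every alternative run. The receptor genes called with IL-4 numbered 5 to 8 in wild type and 6 to 9 in AhR-deficient cells. The genotype calls were less stable. In medium, 3 receptor genes became 1 with the granulocyte score and 0 with only the groups compared or without wild-type numbers 1 and 2, and 0 to 4 when 1 library was left out. In IL-4, 3 became 0 with the granulocyte score or without wild-type numbers 1 and 2, and 0 to 4 when 1 library was left out. Over all genes, the 1197 calls in medium became 1990 with DESeq2, 468 with the granulocyte score, 59 with only the groups compared, 30 without wild-type numbers 1 and 2, and 95 to 1716 when 1 library was left out. The 239 calls in IL-4 became 802 with DESeq2, 33 with the granulocyte score, 361 with no filter, 523 with only the groups compared, 420 with the number as a random replicate block (limma-voom), 25 without wild-type numbers 1 and 2, and 24 to 533 when 1 library was left out. The cause was not tested. For the interaction, DESeq2 called 3 genes in place of 0, and 60 with the fixed replicate block, 1 of them a receptor gene (Il17ra). The fixed block in edgeR called 0 and changed 1 call on the receptor genes, Il7r in wild type (0.39).

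Values that changed sign had all failed the test. With the granulocyte score these were Il10ra in medium (-0.084), Ifnlr1 (-0.18), Ifngr2 (-0.0080) and Il10ra (-0.043) between genotypes in IL-4, and Ifnar1 in the interaction (-0.0067). Without wild-type numbers 1 and 2 they were Il10ra in medium (-0.14) and Ifngr2 in the interaction (0.024). Without number 7 they were Ifnlr1 in IL-4 (-0.046) and Ifnar1 in the interaction (-0.045), and with no filter Ifngr2 in the interaction (0.00083). With 1 library left out, the genotype difference ran from -0.079 to 0.084 for Il10ra and from -0.16 to 0.047 for Il17ra in medium, and from -0.23 to 0.40 for Ifnlr1 in IL-4. The interaction ran from -0.071 to 0.11 for Ifnar1 and from -0.062 to 0.0078 for Ifngr2. At 33432502 to 42885079 counts per library, 3 of 14 ligands had enough counts to be tested.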
